A study of Arabidopsis thaliana with 9 samples.

Results

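Abscisic acid (ABA) is the hormone with which plants answer salt and drought, and the report concerns 8 Arabidopsis genes whose products remove the active hormone or return it from storage. The 8 genes were listed by name as ABA breakdown and conjugation genes: the cytochrome P450 genes CYP707A1 (AT4G19230), CYP707A2 (AT2G29090), CYP707A3 (AT5G45340) and CYP707A4 (AT3G19270), the glucosyltransferase genes UGT71B6 (AT3G21780) and UGT71C5 (AT1G07240), and the beta-glucosidase genes BGLU18 (AT1G52400) and BGLU33 (AT2G32860). They lie on chromosomes 4, 2, 5, 3, 3, 1, 1 and 2 in that order. All 8 passed the filter on dim probes and are 8 of the 22805 genes tested.

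The study compared 3 groups of 4-week-old Col-0 seedlings, each with 3 one-colour Agilent oligo arrays: seedlings given 10 μM ABA for 6 h, seedlings given 150 mM NaCl for 6 h, and control seedlings irrigated with water alone. All groups were the same wild-type ecotype, and root and shoot were harvested together. Seedlings of a treatment were pooled at harvest and then divided into the 3 portions, so p-values measure the spread between portions of a pool rather than between plants.

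An ABA molecule leaves the active pool by oxidation or by conjugation. The CYP707A enzymes hydroxylate ABA at its 8′ carbon, and the product rearranges to phaseic acid. UGT71B6 and UGT71C5 attach glucose to ABA and give the inactive ABA-glucose ester, which is stored mainly in the vacuole. BGLU18 in the endoplasmic reticulum and BGLU33 in the vacuole split that ester and free ABA again. The genes of oxidation are known to be induced by ABA itself, which makes the pathway a feedback on the hormone.

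Signals are given as log2 of the quantile-normalized intensity of the brightest probe of a gene, and are compared between groups for 1 probe at a time, never between probes. A gene was called when limma gave a Benjamini-Hochberg adjusted p under 0.05 over all 22805 genes together with a fold change of at least 2. Both treatments were set against the same 3 control arrays, so the values of the 2 comparisons are given side by side and not as independent evidence of each other.

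The arrays had median intensities of 125.8 to 254.2, with 68.9 to 72% of the probes above background, and no spot was saturated. Arrays of a group correlated at r of 0.9596 to 0.9851 with ABA, 0.9461 to 0.9718 with NaCl and 0.9402 to 0.9716 in controls. The NaCl arrays lay on a slide of their own that was scanned 235 days before that of the controls, so an effect of NaCl and an effect of that slide or scan cannot be told apart. The control arrays shared another slide, while ABA replicate 1 lay on a slide apart from ABA replicates 2 and 3. No slide held arrays of more than 1 group, so ABA over control also compares arrays of different slides. A fit with slide as a random block cannot separate slide from treatment here, so its calls are no check on slide. Its estimated correlation within slides was negative (−0.34), and its SEs were smaller (for UGT71C5 with ABA, 0.122 rather than 0.191). In that fit, CYP707A2 (2.73, adjusted p = 0.000122) and UGT71C5 (−1.06, adjusted p = 0.00177) kept their ABA calls. CYP707A1 (1.58, adjusted p = 0.0114) and CYP707A4 (2.69, adjusted p = 0.0206) gained one. The 6 ABA response genes used as a check, among them HAI1 and HAI2 (phosphatases that restrain ABA signalling) and RD29B (a stress gene with ABA-response elements), all rose with NaCl, and 5 of them rose with ABA. HAI1 rose 46.9-fold with ABA and 26.5-fold with NaCl. RD29B passed the filter only through the treated groups and was not well above background in controls. It had to differ there, so its calls add no support to those of the other response genes. RD29B was at least 9.35-fold higher with ABA and at least 7.1-fold higher with NaCl. RAB18, a dehydrin gene named after its values were seen, was the exception with a log2 fold change of 2.09 over control with ABA (adjusted p = 0.0703).

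Markers of organs did not stay level across the arrays. Over the 5 root markers tested of 7 listed, the summed signal was 429, 336 and 345 on the ABA arrays, 3930, 1240 and 236 on the NaCl arrays and 504, 592 and 345 on the control arrays. Of the 7, 3 were at background on every ABA array, none on every NaCl array and 2 on every control array. NaCl replicate 1 therefore stood well above all the other arrays in root marker signal. NaCl replicate 3 had the lowest sum, but of the 5 markers only NRT2.1 was itself lowest on that array. NRT2.1 had a log2 signal of 4.17 there, against 7.55 to 8.45 on the ABA and control arrays. The flower marker PI, a floral homeotic gene, had a signal of 2100 on NaCl replicate 3, against 2.86 to 102 on the other 8 arrays. Leaf markers, summed over the 5 that were measured on all arrays, spanned 414000 to 438000 with ABA, 360000 to 381000 with NaCl and 426000 to 441000 in controls. With NaCl over control, 1 of the 5 tested root markers was called up (HKT1, a sodium transporter, at 2.05, adjusted p = 0.039, with 2 of 3 control arrays above background), and 3 of the 6 leaf markers were called down, namely CA1 (a carbonic anhydrase, at −3.60, adjusted p = 0.000564), MYB60 (a guard cell transcription factor, at −2.71, adjusted p = 0.00233) and RBCS1A (a Rubisco subunit, at −1.12, adjusted p = 0.00358). Most uncalled root markers also lay above controls: AT5G17820, CASP1 and RHS13 were at 3.86, 2.42 and 1.47 (adjusted p = 0.0695, 0.122 and 0.119). AT5G17820 passed the filter only through the NaCl group. The leaf marker LHCB2.1 was at −0.90 (adjusted p = 0.00553), under the fold threshold. The remaining markers went the other way. The root marker NRT2.1, a nitrate transporter, was at −1.76 (adjusted p = 0.166). The leaf markers GLK1, a regulator of chloroplast development, at 0.66 (adjusted p = 0.0147) and LHCB1.3, a light-harvesting protein, at 0.29 (adjusted p = 0.181), were above controls on all NaCl arrays. RHS13, LHCB2.1, NRT2.1, GLK1 and LHCB1.3 were named after their values were seen. No organ marker was called with ABA over control, where 0 of the 5 root and 0 of the 6 leaf markers also had an unadjusted p under 0.05. In ABA against NaCl, 2 root markers were called down and 2 leaf markers up. Seed markers gave no tested gene among 5. In RNA of whole seedlings, fewer cells of a type and less RNA per cell cannot be told apart. The part of these markers in the results that follow was not tested. Some values without NaCl replicate 1 are given, but leaving out 1 array does not test that part.

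**Figure D1:**
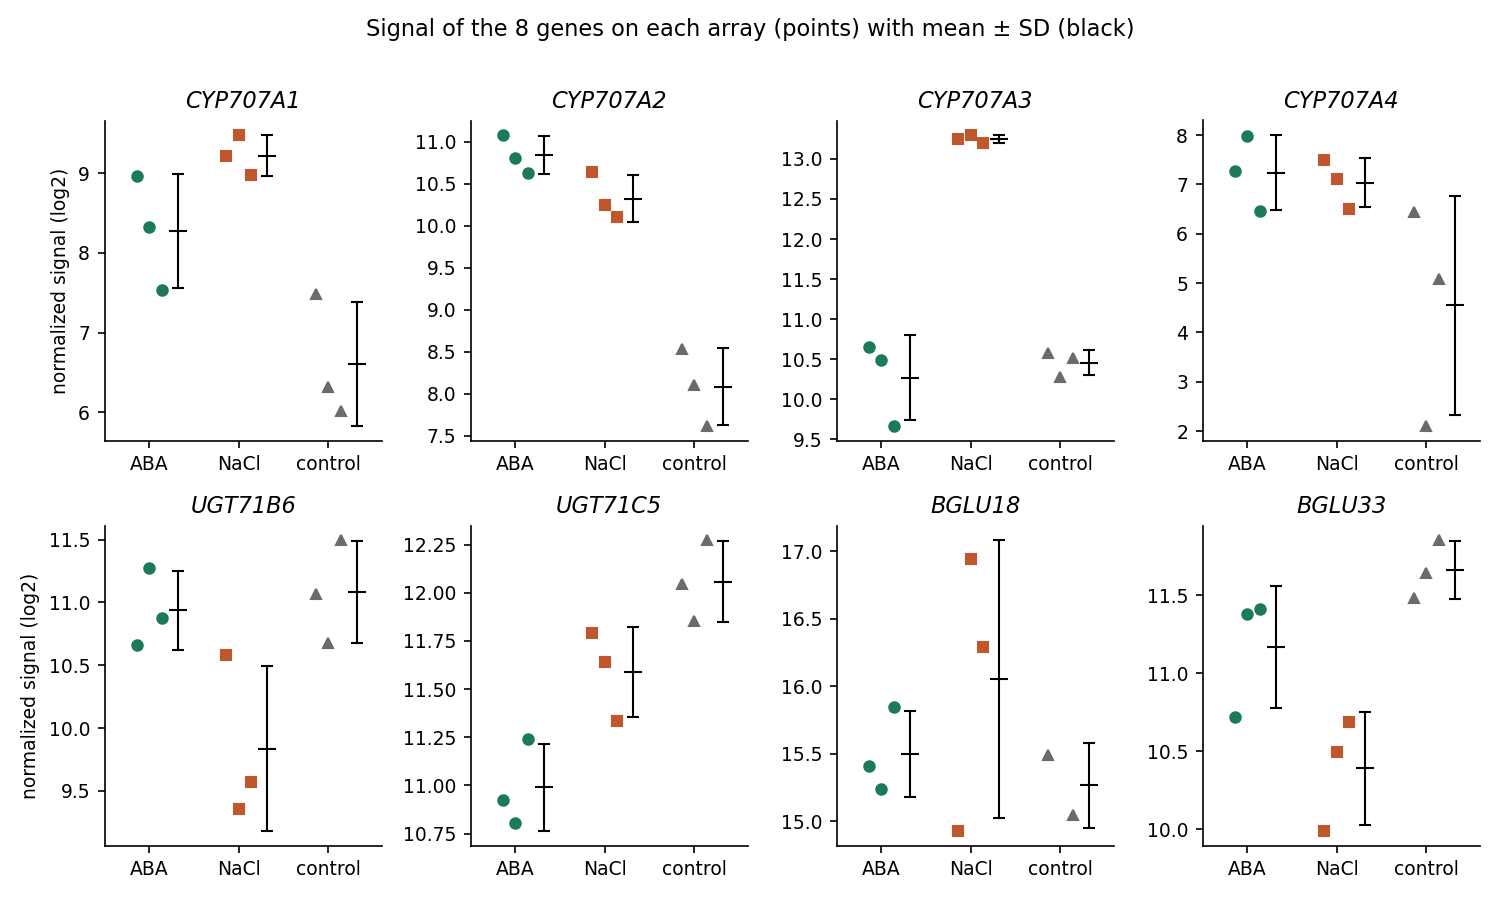
Normalized signal (log2, vertical axis) of the 8 genes on each array, with a panel for each gene, groups in the order ABA, NaCl, control, points for single arrays and black bars for the mean ± SD (n = 3, but n = 2 for BGLU18 in controls). The vertical axes differ between panels and do not start at 0. CYP707A2 was high in both treatments, whereas the 3 NaCl arrays of CYP707A3 lay at 13.20 to 13.30 and all other arrays at or below 10.65.

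To ask whether the oxidation genes respond to salt and to the hormone, the CYP707A family was examined first. With NaCl, CYP707A1, CYP707A2 and CYP707A3 were upregulated 4.73-fold to 6.91-fold. With ABA, CYP707A2 was the only called gene of the family and was upregulated 6.76-fold, while CYP707A3 had a signal close to that of the controls. CYP707A4 had higher signals on all treated arrays than on the control arrays but did not pass the test in either treatment.

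CYP707A2, best known for ABA breakdown in imbibed seeds, had log2 signals of 11.08, 10.81 and 10.64 on the ABA arrays, 10.64, 10.24 and 10.10 on the NaCl arrays and 8.54, 8.10 and 7.61 on the control arrays. Every treated array lay above every control array, and the ABA and NaCl arrays overlapped. The means were 10.84 ± 0.22 with ABA, 10.33 ± 0.28 with NaCl and 8.08 ± 0.46 in controls (SD, n = 3 each). The log2 fold change was 2.76 with ABA (SE 0.26, adjusted p = 0.00329) and 2.24 with NaCl (SE 0.26, adjusted p = 0.000769), both over control. ABA minus NaCl was 0.52, with a 95% confidence interval of −0.09 to 1.12 (adjusted p = 0.158), so the order of the treatments was not resolved.

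CYP707A3, the family member noted for its induction on rehydration after drought, had log2 signals of 10.65, 10.49 and 9.67 on the ABA arrays, 13.25, 13.30 and 13.20 on the NaCl arrays and 10.58, 10.28 and 10.52 on the control arrays. The NaCl arrays stood apart from the other 6, with an SD of 0.05 among them, and ABA and control arrays overlapped. NaCl over control was 2.79 on the log2 scale (6.91-fold, SE 0.25, adjusted p = 0.000313). ABA over control was −0.19, with a 95% confidence interval of −0.76 to 0.39 (adjusted p = 0.743), so an increase with ABA of the size measured with NaCl lies outside that interval. ABA against NaCl was tested directly and gave −2.98 (7.87-fold lower with ABA, adjusted p = 0.000329). Leaving out any single array left the NaCl increase at 2.70 to 2.84.

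CYP707A1, which acts in seeds and in guard cells, had log2 signals of 8.97, 8.33 and 7.54 on the ABA arrays, 9.21, 9.48 and 8.97 on the NaCl arrays and 7.49, 6.31 and 6.01 on the control arrays. All treated arrays lay above all control arrays, although ABA replicate 3 exceeded control replicate 1 only slightly. The means were 8.28 ± 0.72 with ABA, 9.22 ± 0.25 with NaCl and 6.61 ± 0.78 in controls (SD, n = 3 each). NaCl over control was 2.62 (6.13-fold, SE 0.46, adjusted p = 0.00368). ABA over control was 1.67 (3.18-fold, SE 0.46, adjusted p = 0.107) and was not called. ABA minus NaCl was −0.95, with a 95% confidence interval of −1.996 to 0.10 (adjusted p = 0.14).

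CYP707A4 had log2 signals of 7.28, 7.98 and 6.46 on the ABA arrays, 7.49, 7.12 and 6.51 on the NaCl arrays and 6.45, 2.101 and 5.09 on the control arrays. Control replicate 2 was not well above background, so the gene passed the filter only through the treated groups, where it is high. ABA replicate 3 lay barely above control replicate 1. The controls therefore spread widely, with a mean of 4.55 ± 2.22 (SD, n = 3), against 7.24 ± 0.76 with ABA and 7.04 ± 0.49 with NaCl. ABA over control was 2.69 (SE 0.98, adjusted p = 0.198) and NaCl over control 2.49 (SE 0.98, adjusted p = 0.0769), neither of which was called. ABA minus NaCl was 0.20 with a 95% confidence interval of −2.06 to 2.47 (adjusted p = 0.889). These sizes rest on control replicate 2, whose signal is only a background value: without it, ABA over control was 1.47 (adjusted p = 0.256) and NaCl over control 1.26 (adjusted p = 0.123), and with normexp background correction they were 1.06 (adjusted p = 0.113) and 0.88 (adjusted p = 0.0494, under the fold threshold). Without control replicate 1 they were 3.64 (adjusted p = 0.121) and 3.44 (adjusted p = 0.0247), of which the NaCl value passed.

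To follow the conjugation branch, the glucosyltransferases were examined next. Neither gene was upregulated in either treatment. UGT71B6 was 2.37-fold lower with NaCl than in controls and UGT71C5 was 2.1-fold lower with ABA than in controls, and both calls were close to the thresholds.

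UGT71B6 had log2 signals of 10.66, 11.27 and 10.88 on the ABA arrays, 10.59, 9.36 and 9.57 on the NaCl arrays and 11.07, 10.68 and 11.50 on the control arrays. NaCl replicates 2 and 3 lay well below the others, whereas NaCl replicate 1, the array high in root markers, lay just below control replicate 2. NaCl over control was −1.25 (SE 0.36, adjusted p = 0.0257) and ABA over control −0.15, with a 95% confidence interval of −0.97 to 0.67 (adjusted p = 0.873). ABA against NaCl was 1.10 (2.14-fold higher with ABA, adjusted p = 0.0439). The NaCl call was lost without control replicate 1 (adjusted p = 0.0633), control replicate 3 (0.0813), NaCl replicate 2 (0.0867) or NaCl replicate 3 (0.0662). Without NaCl replicate 1 the NaCl value was −1.62 and remained called. The call of ABA against NaCl was lost without control replicate 1, without any single ABA array, and without NaCl replicate 2 or 3, with adjusted p of 0.059 to 0.138.

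UGT71C5, described as a main ABA glucosyltransferase of the plant, had log2 signals of 10.92, 10.80 and 11.24 on the ABA arrays, 11.79, 11.64 and 11.33 on the NaCl arrays and 12.04, 11.86 and 12.27 on the control arrays. The groups did not overlap and were ordered ABA, NaCl and control by increasing signal. The means were 10.99 ± 0.23 with ABA, 11.59 ± 0.23 with NaCl and 12.06 ± 0.21 in controls (SD, n = 3 each). ABA over control was −1.07 (SE 0.19, adjusted p = 0.0364), and NaCl over control was −0.47 (SE 0.19, adjusted p = 0.0836). ABA minus NaCl was −0.60 (adjusted p = 0.0417), which is under the fold threshold, so UGT71C5 was not called there. Although the sign never changed, the ABA call was lost without any single control array, any single ABA array or NaCl replicate 2, with adjusted p of 0.0612 to 0.132, and it remained without NaCl replicate 1 or 3.

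The beta-glucosidases, which release ABA from the stored ester, differed from each other in the NaCl comparison. BGLU33 was 2.41-fold lower with NaCl than in controls, while BGLU18 was not called in any comparison and had an SD of 1.03 among the NaCl arrays, the widest of the 8 genes in that group.

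BGLU33 had log2 signals of 10.72, 11.38 and 11.41 on the ABA arrays, 9.99, 10.50 and 10.69 on the NaCl arrays and 11.48, 11.64 and 11.85 on the control arrays. All NaCl arrays lay below all ABA arrays, which in turn lay below all control arrays. NaCl over control was −1.27 (SE 0.25, adjusted p = 0.00625) and kept its call without any single array. ABA over control was −0.49, with a 95% confidence interval of −1.07 to 0.09 (adjusted p = 0.353). ABA minus NaCl was 0.78 (adjusted p = 0.0445), under the fold threshold, and reached 1.00 without ABA replicate 1 (adjusted p = 0.0244).

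BGLU18 had log2 signals of 15.41, 15.24 and 15.85 on the ABA arrays, 14.93, 16.94 and 16.29 on the NaCl arrays. Control replicates 1 and 3 stood at 15.49 and 15.04, and the spot of control replicate 2 was left out of the fit because it was marked as non-uniform. NaCl replicate 1 was the lowest of all arrays and NaCl replicate 2 the highest. NaCl over control was 0.79, with a 95% confidence interval of −0.51 to 2.08 (adjusted p = 0.287), and ABA over control was 0.23, with an interval of −1.06 to 1.53 (adjusted p = 0.869). Without NaCl replicate 1, which had the highest root marker signal, NaCl over control was 1.37 and passed (adjusted p = 0.0247), and ABA against NaCl was −1.14 and passed (adjusted p = 0.0361). The value over control also lacked the control replicate 2 spot. Leaving out NaCl replicate 1 was not tried on the other probes of the gene.

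**Figure D2:**
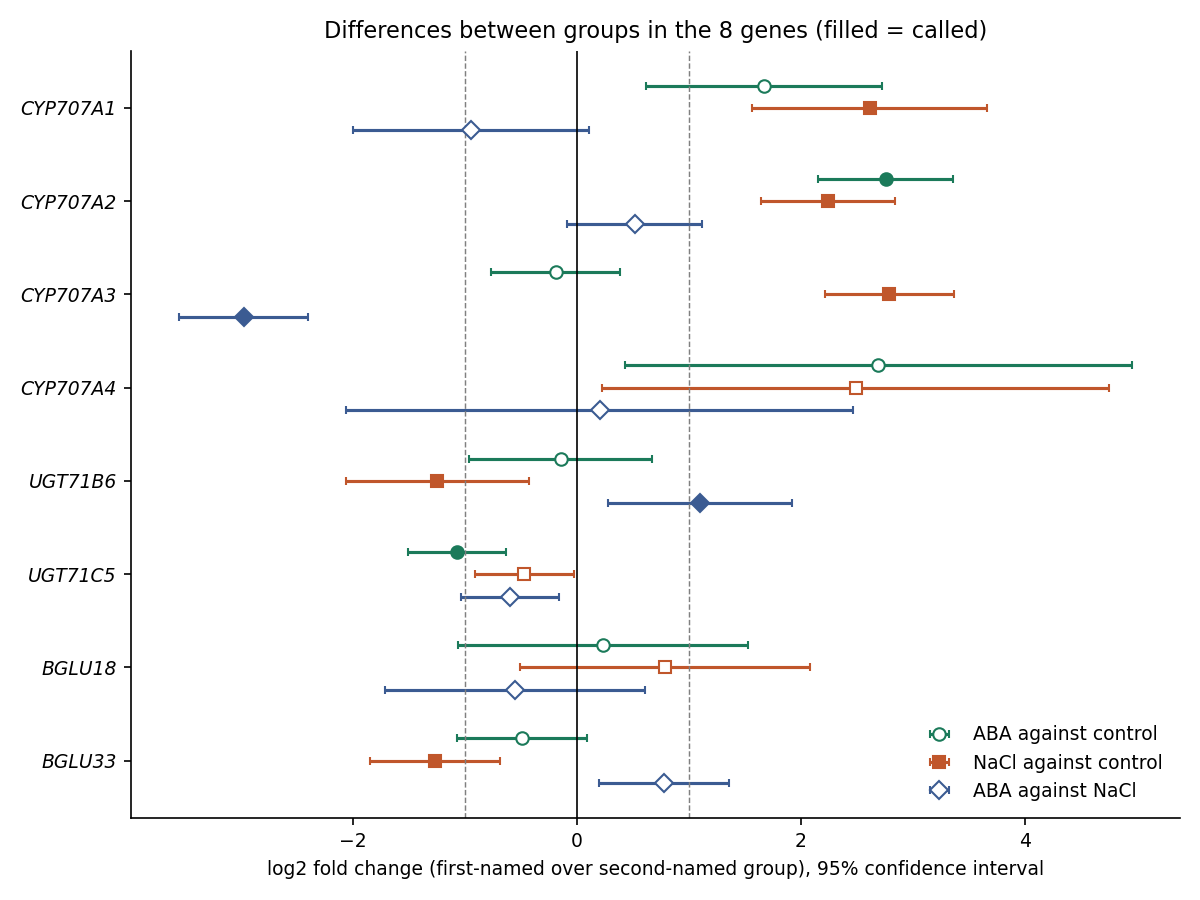
Log2 fold change (horizontal axis) of the 8 genes in the 3 comparisons, with bars for the 95% confidence interval, filled symbols for called genes and dashed lines at the fold threshold of 2. CYP707A2 was called in both treatments over control, and CYP707A3 was called at 2.79 with NaCl over control and at −2.98 with ABA against NaCl.

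Counted together, 3 of the 8 genes were called up with NaCl over control, against 9.93% of all genes, and 2 were called down, against 13.3%. With ABA over control, 1 was called up and 1 down, against 0.842% and 0.732% of all genes. In ABA against NaCl, 1 was called up and 1 down, against 10.4% and 9.81% of all genes. The arrays of the groups did not overlap for 7 of the 8 genes in NaCl over control, where 52.9% of all genes did not overlap, for 5 in ABA over control (29.6% of all genes) and for 5 in ABA against NaCl (52.1% of all genes). CYP707A4 is in both counts over control, but it passed the filter only through the treated groups, where it is high. Its separation from controls therefore adds no support. The median log2 fold change of the 8 genes was 1.52 with NaCl and 0.04 with ABA over control, whereas the median of all genes was −0.11 in both comparisons. For ABA against NaCl the medians were −0.18 for the 8 genes and −0.01 for all genes. In both treatments over control these medians join oxidation genes, which lay mostly above 0, and conjugation and release genes, which lay mostly below it.

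Of the 8 genes, 4 carry more than 1 probe, which allows a second reading of the same gene. The second probe of CYP707A1 gave 6.89, 6.63 and 5.69 with ABA, 6.66, 6.71 and 5.74 with NaCl and 5.50, 4.72 and 3.96 in controls. On it, NaCl over control was 1.65 (adjusted p = 0.0266) and ABA over control 1.68 (adjusted p = 0.116), so the calls stayed, while ABA minus NaCl was 0.03 rather than −0.95. On the brighter probe ABA against NaCl was not called either (adjusted p = 0.14), so the order of the treatments was not resolved.

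For CYP707A3, the second probe in brightness gave 2.52 for NaCl over control (adjusted p = 0.00087) and −0.51 for ABA over control (adjusted p = 0.417), close to the brightest probe. The third probe was dim outside the NaCl group, with log2 signals of 5.14, 5.09 and 4.16 on the ABA arrays and 5.67, 5.15 and 5.24 on the control arrays, against 10.68, 10.59 and 10.56 on the NaCl arrays. Its NaCl value over control was 5.25 (adjusted p = 4.13e-05), and ABA against NaCl was −5.81 (adjusted p = 4.12e-05). All 3 probes called the gene up with NaCl and none called it with ABA, but the size of the NaCl increase differed among them.

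The other 2 probes of BGLU18 showed the same pattern among the NaCl arrays, with NaCl replicate 1 lowest at 13.69 and 14.00 and NaCl replicate 2 highest at 15.55 and 15.97. Both measured control replicate 2, at 15.29 and 15.65, and it was the highest control array on each. With these probes NaCl over control was 0.07 and 0.08 (adjusted p = 0.921 and 0.912), and it was 0.41 and 0.44 when their control replicate 2 spots were left out as well. The second probe of BGLU33 gave −1.51 for NaCl over control (adjusted p = 0.00324) and 1.16 for ABA against NaCl, which passed (adjusted p = 0.0105).

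**Figure D3:**
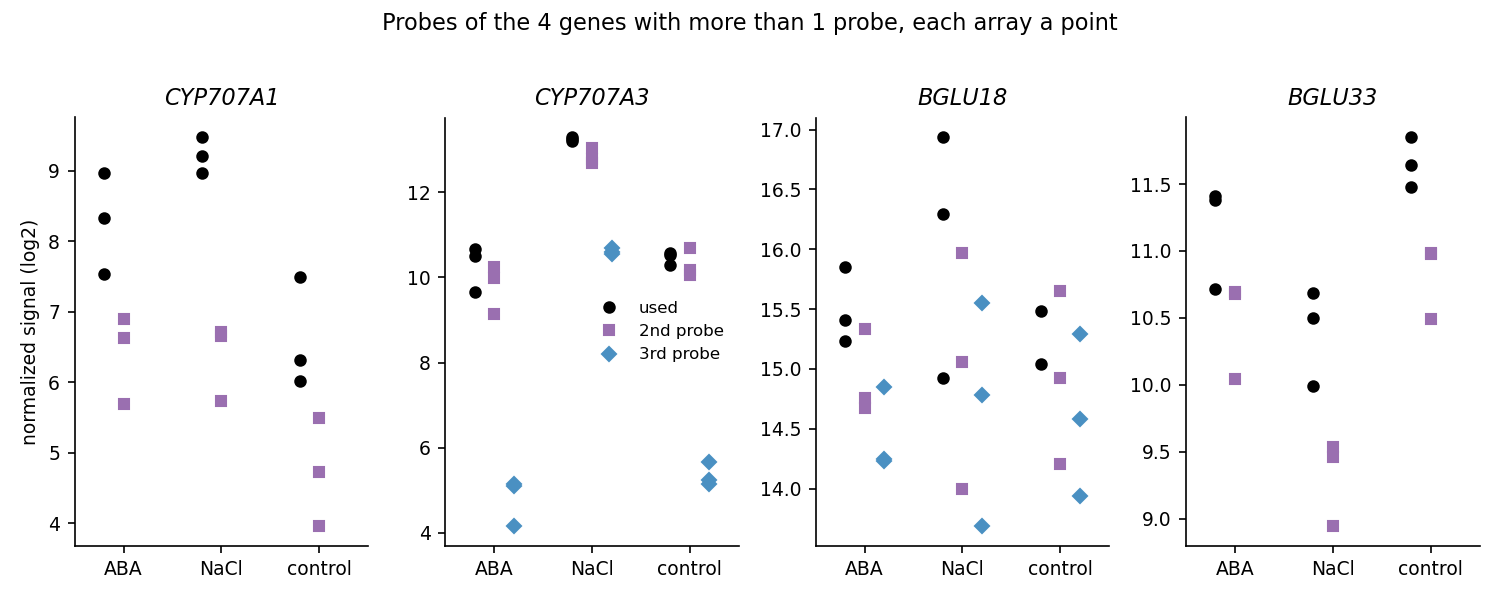
Normalized signal (log2, vertical axis) of every probe of the 4 genes that have more than 1, with a point for each array, groups in the order ABA, NaCl, control, black circles for the probe used, squares for the second and diamonds for the third in brightness. The third probe of CYP707A3 lay at 10.56 to 10.68 with NaCl, against 4.16 to 5.14 with ABA and 5.15 to 5.67 in controls. The control replicate 2 spot of the BGLU18 probe used is left out.

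Other genes of ABA metabolism were counted for comparison. Of all genes, 9.93% were called up and 13.3% down with NaCl, against 0.842% and 0.732% with ABA over control. Calls with NaCl and none with ABA in a short list are therefore not read as a trait of that list. ABA biosynthesis had 10 listed genes, of which 7 were tested. NCED3 and NCED9, dioxygenases that cleave the carotenoid precursor in the limiting step, were called up with NaCl, and no gene of the list was called with ABA over control. NCED3, the main drought-induced member, had log2 signals of 7.52, 8.22 and 7.69 with ABA, 11.01, 11.17 and 10.34 with NaCl and 8.91, 8.78 and 7.98 in controls. It was upregulated 4.87-fold with NaCl (adjusted p = 0.00168), whereas ABA over control was −0.75 (adjusted p = 0.275) and ABA against NaCl −3.03 (adjusted p = 0.000778). All ABA and control arrays left NCED9 not well above background. NCED9 therefore passed the filter only through the NaCl group and had to differ there, so its call adds no support to that of NCED3. Its NaCl signal was at least 4.26-fold higher than that of controls, and ABA was at least 3.93-fold lower than NaCl. These bounds set the mean of the bright group against the lowest signal called above background on each dim array. NCED3 and CYP707A3 thus were both called up with NaCl, not called with ABA over control, and called down in ABA against NaCl.

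Of the 9 UGT71B and UGT71C relatives, 8 were tested. HYR1 and AT3G21790 were called up with NaCl, at 1.00 (adjusted p = 0.0188) and 1.12 (adjusted p = 0.00737) on the log2 scale, and none was called with ABA over control or in ABA against NaCl. AT3G21790 is the locus next to UGT71B6 on chromosome 3 and was higher with NaCl where UGT71B6 was lower. Whether the probes tell close relatives apart was not tested. HYR1 had log2 signals of 11.71, 11.64 and 11.55 with ABA, 11.79, 11.73 and 11.77 with NaCl and 11.32, 10.83 and 10.15 in controls.

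A further 6 glucosyltransferases that can accept ABA in the test tube were listed, and 3 passed the filter. All 3 were called up with NaCl: UGT73B3 at 1.85 (adjusted p = 0.0127), UGT75B1 at 1.79 (adjusted p = 0.0184) and UGT73B1 at 1.67 (adjusted p = 0.0122, with 1 NaCl spot left out). None was called with ABA over control, and UGT73B1 and UGT73B3 were called down in ABA against NaCl, at −2.28 and −1.71 (adjusted p = 0.00445 and 0.0195). UGT73B3 had log2 signals of 10.97, 11.78 and 10.99 with ABA, 12.94, 13.84 and 12.08 with NaCl and 11.37, 11.24 and 10.69 in controls. With NaCl these 3 genes thus were called up, UGT71B6 was called down and UGT71C5 was not called.

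Among 7 other beta-glucosidases, 4 were tested and 1 was called. BGLU21, a root-expressed glucosidase, had log2 signals of 6.70, 1.42 and 5.07 with ABA, 10.99, 9.52 and 5.81 with NaCl and 1.45, 4.87 and 3.07 in controls, where 1 array was above background. BGLU21 was called up with NaCl (adjusted p = 0.0314), but it passed the filter only through the NaCl group, where it is high, and no fold is given against controls mostly at background. Its NaCl arrays stood in the same order as their root marker sums. The locus AT4G27250, listed beside the phaseic acid step, did not pass the filter.

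Of 8 transport genes, all tested, DTX50 and ABCG25, both exporters of ABA from the cell, were called up with NaCl, at 2.64 (adjusted p = 0.0118) and 1.32 (adjusted p = 0.000508), and none was called with ABA over control. DTX50 had log2 signals of 9.16, 10.20 and 8.83 with ABA, 12.52, 13.32 and 11.18 with NaCl and 10.40, 9.77 and 8.93 in controls, and was called down in ABA against NaCl at −2.94 (adjusted p = 0.0088). ABCG30, an ABA importer, was called up in ABA against NaCl at 1.08 (adjusted p = 0.0367). ABCG25 had log2 signals of 9.51, 9.49 and 9.497 with ABA, 9.87, 10.18 and 9.83 with NaCl and 8.54, 8.68 and 8.70 in controls. With ABA it was 0.86 over control (adjusted p = 0.0261), under the fold threshold, and all its ABA arrays lay above the control arrays.

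**Figure D4:**
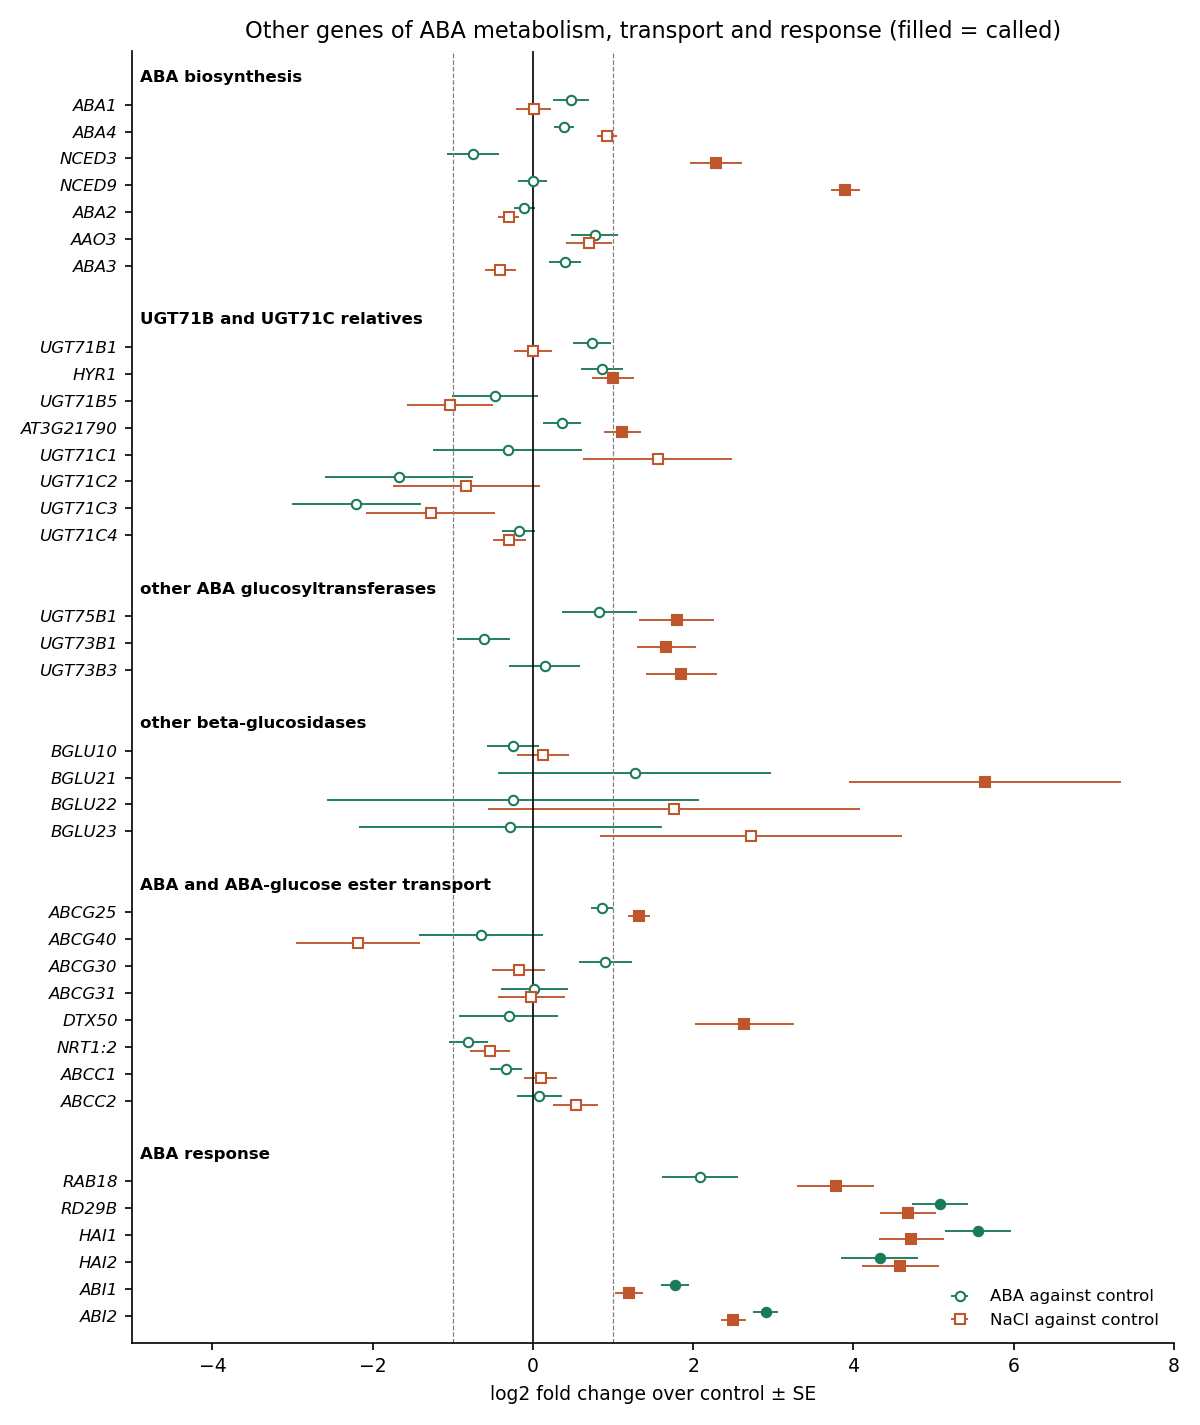
Log2 fold change over control ± SE (horizontal axis) of the tested genes of 6 other lists of ABA metabolism, transport and response, with green circles for ABA, orange squares for NaCl, filled symbols for called genes and dashed lines at the fold threshold of 2. Lists of metabolism and transport hold filled symbols for NaCl only, while 5 of 6 response genes are filled for both treatments. Of all genes, 9.93% were called up and 13.3% down with NaCl, against 0.842% and 0.732% with ABA. The plotted values of NCED9 and RD29B rest on control signals at background, and that of BGLU21 on controls of which 1 of 3 was above background.

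The genes most like each of the 8 over the arrays were sought among 17372 genes with a complete record, by Pearson's r of log2 signal across the 9 arrays of 3 groups, as a description that mixes treatment with slide. CYP707A2 was nearest to HAI1 (r = 0.994), the phosphatase gene of the ABA response, which had log2 fold changes of 5.55 with ABA and 4.73 with NaCl. Its next neighbour was AT3G27270 (r = 0.993), at 1.07 with ABA and 0.89 with NaCl. CYP707A3 was nearest to AT5G51190 (r = 0.994), which stood at −0.39 with ABA and 3.58 with NaCl, and to AT2G41640 (r = 0.993), at 0.04 with ABA and 3.67 with NaCl. These neighbours share the pattern of their gene by the way they were chosen.

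CYP707A1 was nearest to AT5G37550 (r = 0.98) and AT5G65470 (r = 0.973). CYP707A4 was nearest to bZIP68 (r = 0.978), at 0.39 with ABA and 0.39 with NaCl. Next came GPT2 (r = 0.958), a glucose 6-phosphate transporter of the plastid, at 1.92 with ABA and 1.99 with NaCl. Both r include the background value of CYP707A4 on control replicate 2, and r without it was not computed. UGT71B6 was nearest to EDS16 (r = 0.972), the isochorismate synthase of salicylic acid production, with −0.04 with ABA and −1.37 with NaCl, and to AT4G25070 (r = 0.971). UGT71C5 was nearest to AT5G63010 (r = 0.992) and AT5G15700 (r = 0.977), which stood at −0.96 and −1.06 with ABA and −0.40 and −0.45 with NaCl. BGLU33 was nearest to SAUR15 (r = 0.979), an auxin-induced gene, with −1.08 with ABA and −2.87 with NaCl, and to GDU7 (r = 0.978). For BGLU18, over the 8 arrays that measured it, PECT1 (r = 0.957) and FLA11 (r = 0.934) came first.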

How the data were processed

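RNA of whole seedlings was measured on 9 one-colour arrays. The authors deposited scanner output of Agilent Feature Extraction 10.7, whose processed intensity values were used; the software subtracts background and detrends but does not scale between arrays. The authors' deposited series table of log2 values, quantile-normalized by them apart for NaCl, served as an alternative only. The deposited marks of 0 or 1 (above background, non-uniform, outlying) were used as filters.

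Control probes and spots marked non-uniform or outlying were left out. Of 43603 probes, 34483 matched 25481 loci by transcript accession. Intensities were log2-transformed and quantile-normalized over all arrays. The 30658 probes well above background on every array of at least 1 group were kept, the brightest per locus, giving 22805 genes, of which 3692 had no matched locus. Precision is limited by the number of arrays.

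Groups were compared in 1 fit with limma 3.58.1 (R 4.3.3), without a block. Scripts were tested on simulated data. The smallest p that permutation of 3 against 3 arrays allows is 0.1, so no permutation test was used. The genes and lists were chosen with earlier results of these data known. Named from the other lists were at most 3 called genes per list and comparison, by size of fold change, and the 2 genes most correlated with each of the 8. ABCG25 with ABA, RAB18, RHS13, LHCB2.1, NRT2.1, GLK1 and LHCB1.3 were named after their values were seen. Alternatives were other scalings, background correction, filters, probes, tests (the study's Welch test included), blocks and left-out arrays. No sequence is shown. Figures were drawn with matplotlib 3.10.9 in Python 3.11.15.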

Additional observations from a re-analysis of the deposited data

How the results depend on the processing

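The increases of CYP707A2 in both treatments and of CYP707A1 and CYP707A3 with NaCl, the decrease of BGLU33 with NaCl and the difference of CYP707A3 between ABA and NaCl kept their calls under every alternative run except the methods' t-test after Benjamini-Hochberg adjustment, where CYP707A3 with NaCl alone stayed called. Over the alternatives other than single probes, the fold changes of the 8 genes kept both their sign and their call status in 450 cases. They kept their sign but passed anew in 14, kept it but no longer passed in 38, and changed sign in 10. The main counts were 5, 2 and 2 of the 8 genes and 5288, 359 and 4619 of all genes, for NaCl over control, ABA over control and ABA against NaCl. Unscaled arrays moved the median of all genes to −0.30, 0.48 and 0.78 in the same order, and the calls that were increases to 32.1%, 95.7% and 90.8%, against 42.8%, 53.5% and 51.6%; ABA over control then called 1385 genes, and ABA against NaCl 4 of the 8 and 8921 of all. Of the 8 genes, 3 were then called up and 0 down with ABA over control. Normexp gave 5 of the 8 and 3351 genes with NaCl and, for ABA against NaCl, 1 of the 8 and 2844 of all. Without the filter on dim probes, 1 of the 8 and 260 of 34239 genes were called with ABA. For ABA against NaCl, 1 of the 8 and 4529 genes were called. The methods' t-test, unadjusted, called 2 of the 8 and 851 genes with ABA. In ABA against NaCl it called 1 of the 8 and 3981 genes. With Benjamini-Hochberg adjustment it called 1 of the 8 and 596 genes with NaCl, 0 and 0 with ABA, and 0 and 1219 in ABA against NaCl. A slide as random block (correlation within slides −0.34) called 4 of the 8 and 1354 genes with ABA. Fits of only the 2 groups compared called 1 of the 8 and 217 genes with ABA. They called 1 of the 8 and 4502 genes in ABA against NaCl. The authors' series table called 1 of the 8 and 232 genes with ABA. The cause of these shifts was not tested. UGT71C5 with ABA was not called in 6 of 13 alternatives (adjusted p up to 0.279), and UGT71B6 was not called in 4 of 12 with NaCl and 6 of 12 in ABA against NaCl. Leaving out 1 array gave 4 to 6 of the 8 and 4425 to 6222 genes with NaCl, 1 to 2 and 88 to 365 with ABA, and 1 to 3 and 3831 to 5410 in ABA against NaCl.

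Values that changed sign were never called. Without scaling, ABA over control became 0.37 for CYP707A3, 0.049 for BGLU33 and 0.40 for UGT71B6, and ABA against NaCl 0.44 for BGLU18 and 0.26 for UGT71C5; relative to the median of all genes they were −0.11, −0.43, −0.07, −0.35 and −0.52. With the mean of the probes, ABA over control of BGLU18 was −0.00036. Leaving out 1 array, ABA over control ranged over −0.347 to 0.061 for UGT71B6 (positive without control replicate 3) and −0.381 to 0.115 for CYP707A3 (positive without ABA replicate 3), and ABA against NaCl of CYP707A4 over −0.165 to 0.593 (negative without ABA replicate 2 or NaCl replicate 3). With other probes, chosen after seeing the data, ABA against NaCl of CYP707A1 was 0.032 and ABA over control of BGLU18 was −0.16 and −0.0057.

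Deviations from the group mean correlated at −0.28 to 0.23 between arrays with the same replicate number. With 3 arrays per group and uncertain ABA numbers, these values cannot exclude that the numbers pair the samples. The numbers are those of the array files, and ABA columns 1, 2 and 3 of the authors' series table best matched the array files of ABA replicates 2, 3 and 1, so the numbering of the ABA arrays is uncertain. A replicate block called 1 of the 8 and 206 genes with ABA. With that block, 1 of the 8 and 4430 genes were called in ABA against NaCl. Not every array correlated best with its own number.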
